A study of Mus musculus with 2 samples.

Results

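MHC class I molecules and the proteins that load them with peptide were represented here by 32 genes, which were chosen by their function and with earlier results of the same arrays known, so that their differences are given as a description with no test. A gene was measured by the array probes whose transcript accession names it. Of the 32 genes, 29 had such a probe. A gene is called detected where the scanner software marked its probe as well above background, and 28 of the 32 were detected on at least 1 array and 27 on both, of 22910 genes named and 15516 detected. H2-Q6, H2-M2 and Psme2 had no probe matched by accession and were not analysed here, and H2-Q1 was not well above background on either array. The RNA came from bone marrow cells of C57BL/6 mice, labelled male for both samples, cultured in RPMI1640 medium with FCS (10%, heat-inactivated). Both cultures received 100 ng/ml of rhM-CSF, which is recombinant human macrophage colony-stimulating factor. Primary macrophages were taken at day 5, and self-renewing macrophages, which proliferate in M-CSF, were taken after passage 4. The self-renewing macrophages were an uncloned culture. Each cell type was measured on 1 array, so time in culture, passage, source mice and cell type cannot be told apart. The number of arrays limits the precision of every value.

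Class I molecules are displayed by nearly all nucleated cells as a heavy chain bound to the light chain β2-microglobulin and a short peptide. Proteasomes cut proteins into peptides, the TAP transporter carries these into the endoplasmic reticulum, and tapasin, calreticulin and ERp57 hold the empty class I molecule until a fitting peptide is bound. CD8 T cells read the classical molecules H2-K and H2-D, whereas many non-classical molecules are read by natural killer cells or by T cells with unusual receptors, and in macrophages the heavy chains, B2m, TAP and immunoproteasome subunits are known to be raised by interferons, with IRF1, NF-κB and NLRC5 among the factors that act on their promoters.

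The promoters of these genes carry the elements through which that regulation is known to run, and the stretches that hold the best known of them are shown for the classical genes, for 1 gene of each non-classical region, for the light chain and for the transporter. The sequences are RefSeq's for build GRCm38.p6, written 5′ to 3′ in the direction of the gene. Capitals mark matches, on either strand, to the NF-κB core of the class I enhancer A (GGGATTCCC), to 2 spacings of the interferon regulatory factor site (GAAANNGAA and GAANNGAAA), to another NF-κB core (GGGANTTCC), to the X2 half-site TGACG and to the Y box CCAAT. The spacing GAANNGAAA was added after the sequences had been seen. The stretches lie at chr17:34000347-34000469 (minus strand of the chromosome), chr17:35262912-35263057 (plus), chr17:35439011-35439155 (plus), chr17:36032737-36032836 (minus), chr17:37270093-37270229 (plus), chr2:122147536-122147650 (plus) and chr17:34187322-34187486 (plus), in the order below.
H2-K1: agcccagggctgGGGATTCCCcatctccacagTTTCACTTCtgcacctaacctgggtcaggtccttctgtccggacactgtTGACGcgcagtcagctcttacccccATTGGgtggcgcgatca
H2-D1: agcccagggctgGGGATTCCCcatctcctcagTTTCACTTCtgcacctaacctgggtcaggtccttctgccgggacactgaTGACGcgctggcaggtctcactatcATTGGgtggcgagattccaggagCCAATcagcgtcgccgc
H2-Q7: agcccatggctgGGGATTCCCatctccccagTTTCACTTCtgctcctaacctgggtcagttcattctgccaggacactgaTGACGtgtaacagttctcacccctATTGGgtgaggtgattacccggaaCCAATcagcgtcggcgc
H2-T23: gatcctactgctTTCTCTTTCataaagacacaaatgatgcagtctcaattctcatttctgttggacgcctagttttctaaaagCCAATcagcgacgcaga
H2-M3: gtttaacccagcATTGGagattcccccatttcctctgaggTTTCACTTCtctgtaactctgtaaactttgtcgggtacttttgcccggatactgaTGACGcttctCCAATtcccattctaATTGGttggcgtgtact
B2m: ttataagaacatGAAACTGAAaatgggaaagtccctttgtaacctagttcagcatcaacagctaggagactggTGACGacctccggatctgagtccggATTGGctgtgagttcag
Tap1: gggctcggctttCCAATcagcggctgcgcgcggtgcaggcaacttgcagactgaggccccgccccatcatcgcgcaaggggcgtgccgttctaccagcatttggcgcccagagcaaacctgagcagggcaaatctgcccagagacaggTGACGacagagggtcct

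H2-K1, H2-D1 and H2-Q7 share an order of elements: the enhancer A core, then an interferon regulatory factor site read on the opposite strand, then TGACG, then CCAAT. H2-M3 keeps the interferon site and TGACG but holds no enhancer A core in these letters, and B2m holds GAAANNGAA, TGACG and CCAAT. In the table used, promoters spanning 250 bases before to 50 bases after the start of transcription were given for 25 of the 32 genes and for 11 of the 14 H2 heavy chain genes. The enhancer A core lay in 4 of these 11 heavy chain promoters and in 0.353% of 32851 promoters, and GAANNGAAA in 8 of the 11 and in 7.52% of all. The other shares of all promoters were 8.56% for GAAANNGAA (2 of the 11), 1.68% for GGGANTTCC (2 of the 11), 20.8% for TGACG (7 of the 11) and 37.4% for CCAAT (10 of the 11). The letter patterns of the 2 interferon spacings can overlap, so that 1 stretch may match both. These promoters are related copies and not independent cases: 7 of the heavy chain promoters aligned with that of H2-K1 over at least 150 bases, with 63.3% to 88.3% of the aligned bases identical, and the other 3, of H2-T22, H2-T23 and H2-M2, did not align over that length. Tap1 and Psmb9 lie head to head with 226 bases between their start sites, so that 275 bases of their promoters at chr17:34187306-34187580 are shared.

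**Figure D1:**
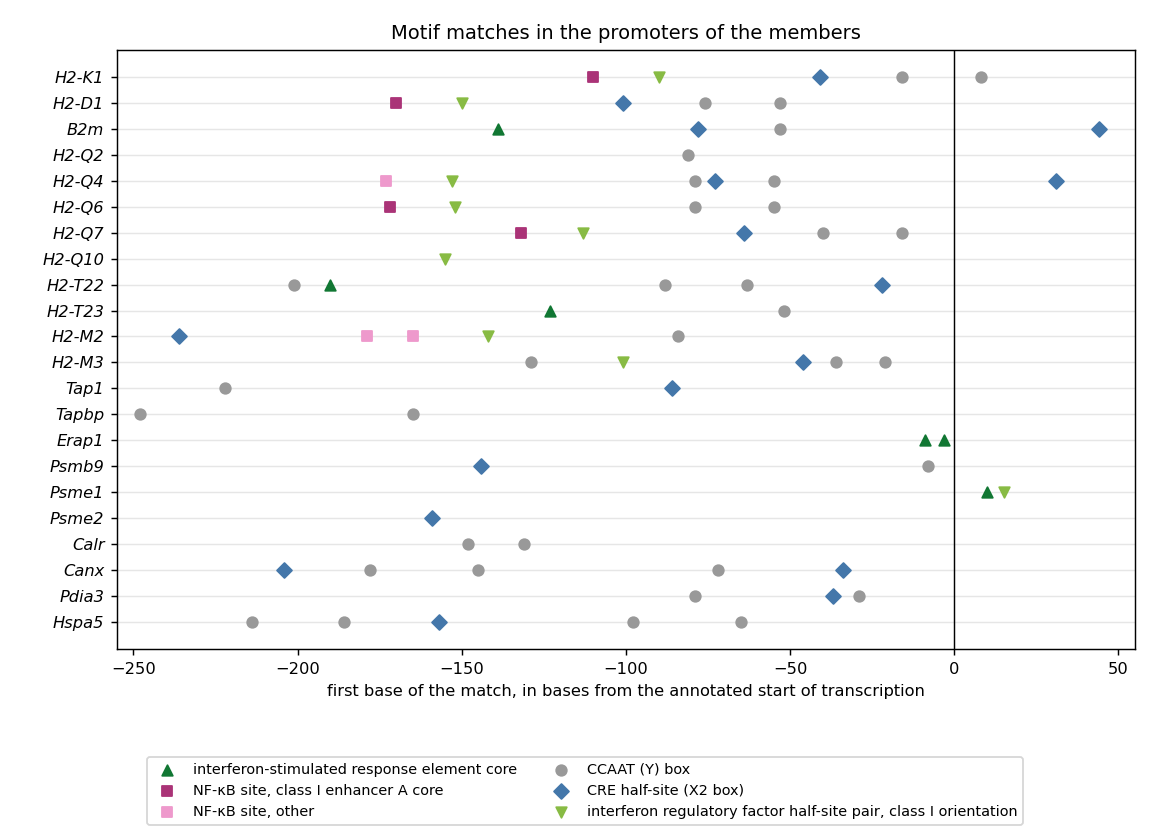
Position of each motif match in the promoters of the genes that held at least 1, in bases from the annotated start of transcription (0); each symbol is the first base of a match on either strand, and the first listed promoter of a gene is drawn. The enhancer A core stands upstream of the interferon site in H2-K1, H2-D1, H2-Q6 and H2-Q7.

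Intensity, the background-corrected brightness of a spot on the linear scale, was turned into a level, which is log2 of the intensity less the same array's 75th percentile over gene probes. A difference is the level in self-renewing minus that in primary macrophages, on the log2 scale, from the probe of a gene with the highest mean signal. Repeated spots of 1 probe varied by a median SD of 0.041 log2 on the primary and 0.046 log2 on the self-renewing array. The scanner software's own error of a difference was 0.20 to 0.21 log2 over 27 of the genes. Different probes for a gene varied in their difference by an SD of 0.32 log2 over 5077 genes of the array. Over the 11 genes of the list with more than 1 probe detected on both arrays, this SD was larger, at 0.46 log2. None of these is a spread between cultures. Of 6 Y-linked genes, 4 were detected in the self-renewing and 0 in the primary macrophages, while Xist, the RNA that coats the inactive X chromosome, was detected in primary macrophages only and was at least 38.1-fold lower in self-renewing macrophages, although the labels give male mice for both. All 10 macrophage markers were detected on both arrays.

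The classical heavy chains and the light chain, which make up the molecules read by CD8 T cells, were all higher in the self-renewing macrophages. H2-K1, the heavy chain of H2-K, had an intensity of 73312 in primary and 119341 in self-renewing macrophages, a difference of 0.66 log2 or 1.58-fold. A second probe for H2-K1 gave 29353 and 48460, a difference of 0.68, so the probes of this gene gave nearly the same difference. H2-D1, the heavy chain of H2-D, went from 54930 to 79544, a difference of 0.49. B2m, the light chain that every class I heavy chain of this list binds, had 73253 and 98877, a difference of 0.39 or 1.31-fold, which lay within the range of the heavy chain genes. No spot was saturated on either array, so these bright probes were not held at the top of the scale.

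The Q region genes encode non-classical heavy chains. All 4 of the list with a measured value were higher in self-renewing than in primary macrophages, and their median difference was 0.62 log2. H2-Q7, which encodes the membrane-anchored molecule Qa-2, had an intensity of 33772 in primary and 50905 in self-renewing macrophages, a difference of 0.55, and its 3 probes ranged from 0.55 to 0.74. H2-Q2 went from 40034 to 65982, a difference of 0.68, and H2-Q4 from 34394 to 40604, a difference of 0.20, the smallest among the heavy chain genes and no larger than the scanner software's error. H2-Q10, which encodes a secreted molecule best known from liver, had 5608 and 9650 on its brightest probe, a difference of 0.74. Its probes did not all go the same way: 3 lay between 0.74 and 0.88, and a dim one, with 52.4 and 25.5, gave -1.08. The H2 heavy chain genes are close copies of each other, and a probe named for 1 of them can also bind RNA of another, so values of single Q region genes are uncertain as values of that gene.

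In the T and M regions, all 5 measured genes of the list were higher in self-renewing than in primary macrophages. Their median difference was 0.71 log2. H2-M3, whose product presents N-formylated peptides such as those of bacteria, had an intensity of 1975 in primary and 3930 in self-renewing macrophages. This difference of 0.95 log2, or 1.93-fold, was the largest among the measured H2 heavy chain genes of the list. H2-T23, which encodes Qa-1, the ligand of an inhibitory receptor of natural killer cells, went from 35027 to 60686, a difference of 0.75. H2-T24 had 290.4 and 489.4, a difference of 0.71, and its second probe gave 0.92. H2-T22 and H2-T10 encode ligands of certain gamma delta T cell receptors. H2-T22 went from 2038 to 2901, a difference of 0.47, and H2-T10 from 652 to 889, a difference of 0.41.

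**Figure D2:**
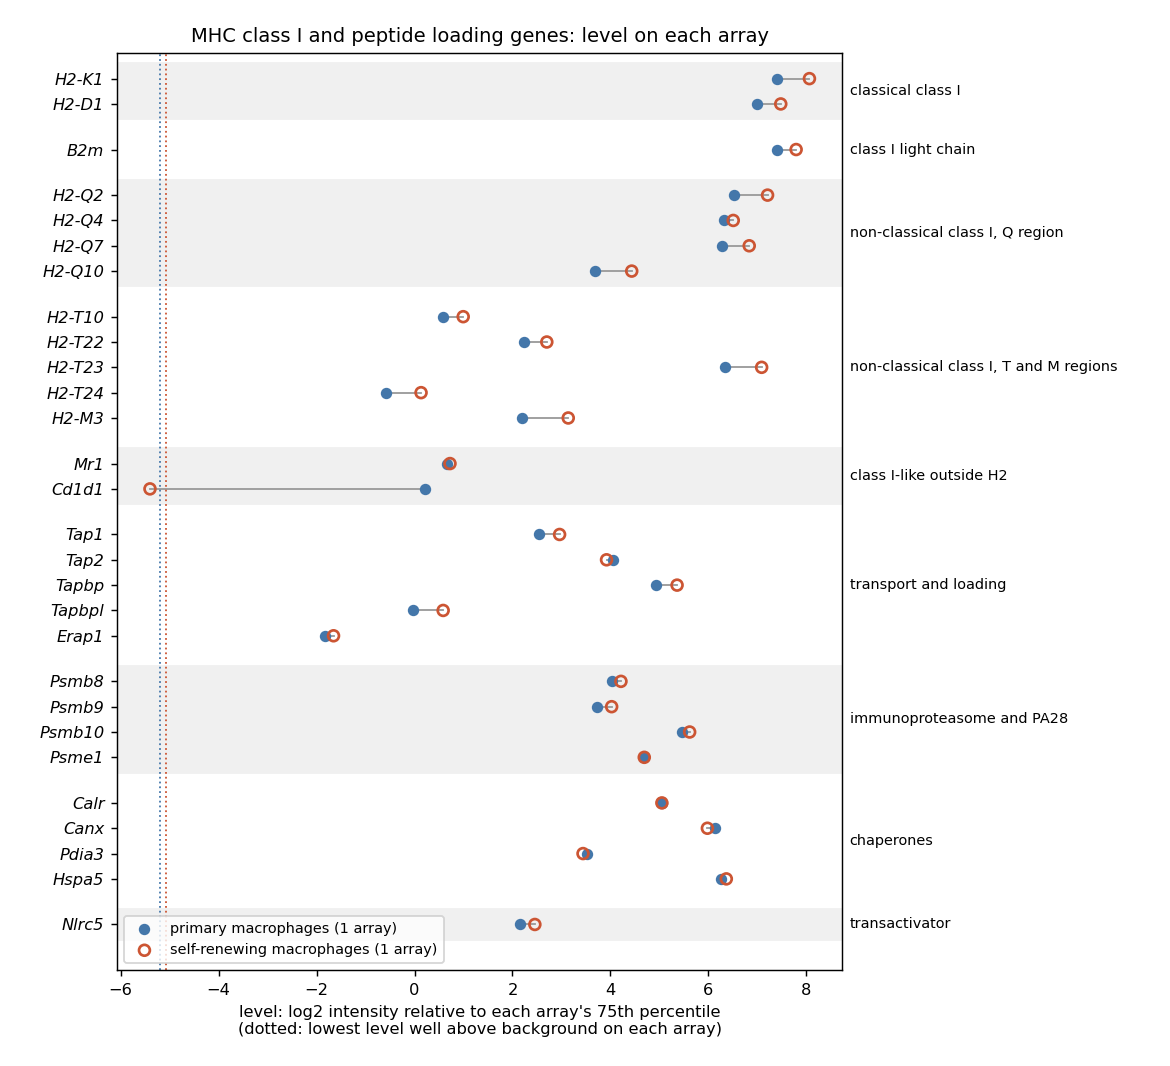
Level of each gene (log2 intensity relative to the array's 75th percentile) on the array of primary macrophages (filled) and of self-renewing macrophages (open), 1 array each, grouped by role. All 11 H2 heavy chain genes lie to the right in the self-renewing macrophages, and Cd1d1 drops below the dotted lines that mark the lowest detected level.

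Taking both kinds of heavy chain together, 11 of 11 measured H2 genes of the list were higher in self-renewing than in primary macrophages. Their differences had a median of 0.66 log2 and a range of 0.20 to 0.95. Of all 15504 genes with a difference, 47.9% were higher and the median was -0.02. At least 1.5-fold higher were 6 of the 11, against 10.9% of all genes, and at least 2-fold higher were 0, against 4.77% of all genes. The 6 became 10 with the authors' scaled values, against 17.5% of all genes. The choice of these genes was made with their values known, so nothing further is read from these shares. Each of the 11 stayed higher under the 8 other ways of processing the arrays that could be run. Of these ways, described below, the rescalings and the authors' scaled values move every gene alike. The changes of detection filter left these 11 values as they were. Only normexp, quantile normalization and probe averaging could change genes unequally. The median of the H2 heavy chain genes lay 0.54 to 0.69 log2 above that of all genes. The 0.54 came without a detection filter, where the undetected H2-Q1 was also counted. With the enhancer A core in the promoter, 3 measured heavy chain genes differed by 0.49 to 0.66. The 6 measured genes without it differed by 0.20 to 0.95, and among them H2-Q4 holds the other NF-κB core. The part of these elements in the differences was not tested.

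**Figure D3:**
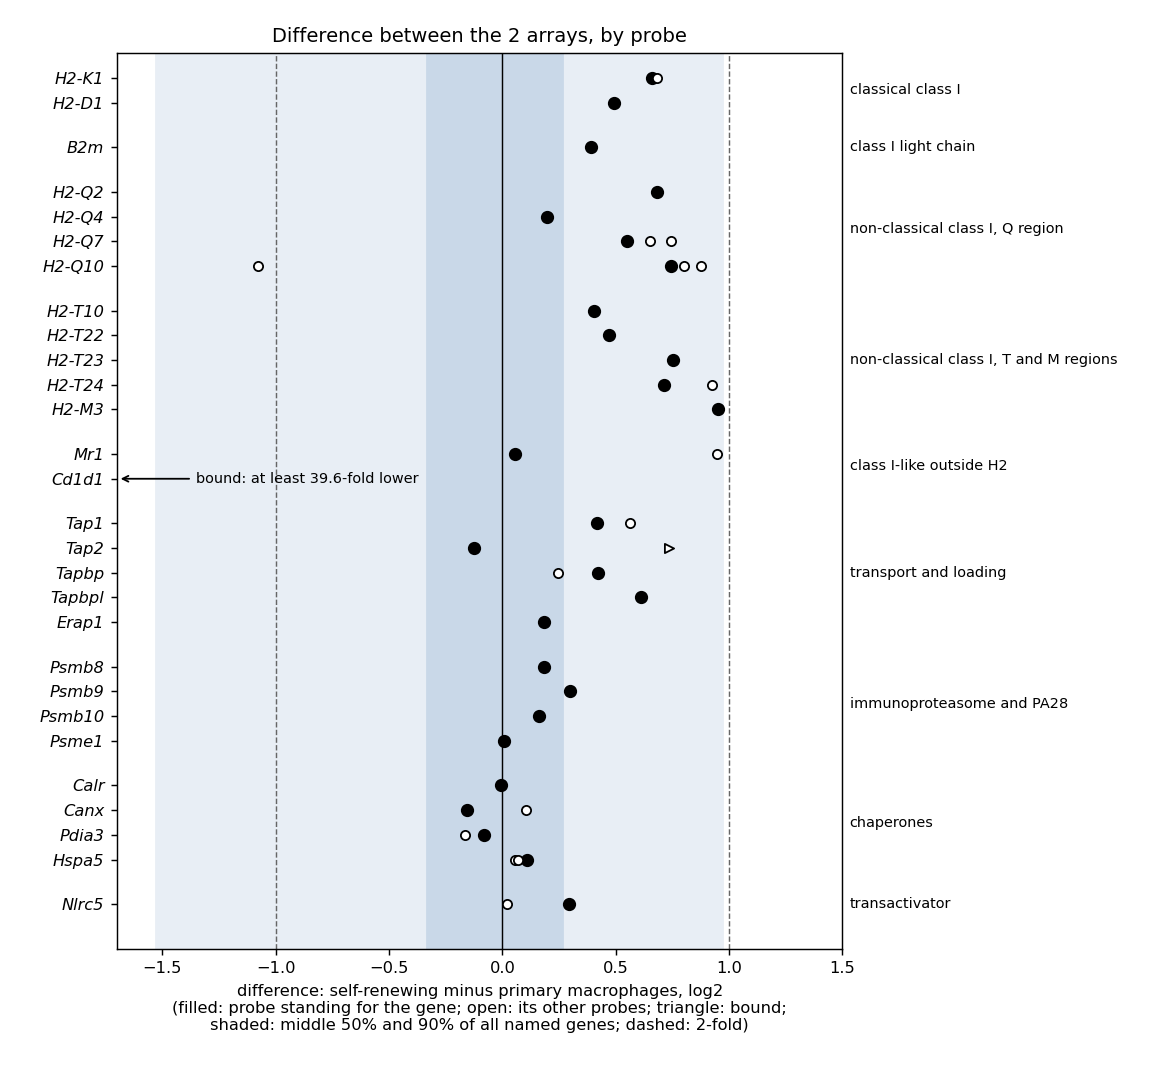
Difference between self-renewing and primary macrophages (log2, 1 array each) for every probe of each gene: the probe that stands for the gene is filled, its other probes are open, triangles are bounds, and the shaded bands hold the middle 50% and 90% of all named genes. The H2 heavy chain probes lie to the right of 0 except 1 dim probe of H2-Q10, and the chaperone probes lie near 0.

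The list holds Cd1d1 and Mr1 as class I-like molecules encoded outside the H2 complex, and they gave different results. Cd1d1, which presents lipids to natural killer T cells, had an intensity of 506 in primary macrophages and 10.6, not well above background, in self-renewing macrophages, so it was at least 39.6-fold lower by its single probe. It was the only gene of the 28 that differed by at least 2-fold, a size at which 8.38% of all genes were lower. With the normexp background correction the difference was -3.00 log2, a smaller fold than that bound, so the bound depends on the processing. Mr1, which presents vitamin B metabolites to mucosal-associated T cells, had 690 and 737, a difference of 0.05, and its dimmer second probe, with 83.3 and 165, gave 0.95. Of 43 markers of neutrophils and of dendritic, T, NK, B, stromal and erythroid cells, 33 were detected on at least 1 array. At least 2-fold lower in the self-renewing macrophages were 14 of these, 8 of them neutrophil markers, against 8.38% of all genes. The summed intensity of the neutrophil markers went from 51854 to 2937, that of the B cell markers from 835 to 128 and that of the T cell markers from 6662 to 5843. The summed dendritic cell markers went from 89353 to 92631, of which Siglech alone made up 83903 and 91973. The summed stromal markers went from 157 to 204. Among the B cell markers Cd79b, part of the B cell receptor, went from 696 to 2.96, the latter not well above background. Dendritic cell markers differed among themselves: Itgax was 8.93-fold and Ccr7 at least 17.7-fold lower by the brighter probe. The second probes of Itgax and Ccr7 gave smaller differences, of -1.69 and -1.36 log2. Zbtb46 was 0.62 log2 and Siglech 0.09 log2 higher. The part of these cells in the result for Cd1d1 was not tested, and in RNA of whole cultures fewer cells of a type and less RNA per cell cannot be told apart.

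Transport and loading genes were higher by less than most heavy chains, with a median of 0.42 log2 and 4 of 5 genes higher. Tap1, a subunit of the peptide transporter, had an intensity of 2533 in primary and 3477 in self-renewing macrophages, a difference of 0.42, and its second probe gave 0.56. Tap2, the other subunit, had 7170 and 6757, a difference of -0.13 that turned to 0.06 with the authors' scaled values and to 0.30 with the mean over its probes, its dim second probe being detected in self-renewing macrophages only. Both subunits are needed for transport, and only Tap1 kept its direction under every alternative run. Tapbp, which encodes tapasin, the protein that tethers class I to the transporter, went from 13301 to 18336, a difference of 0.42, and its second probe gave 0.25. Tapbpl, a tapasin-related peptide editor, went from 426 to 669, a difference of 0.61 or 1.53-fold, the only one of the 17 measured genes other than heavy chains that was at least 1.5-fold higher. Erap1, the aminopeptidase that trims peptides in the endoplasmic reticulum, had 121 and 142, a difference of 0.18.

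The immunoproteasome subunits, which replace catalytic subunits of the constitutive proteasome and change the peptides it cuts, lay slightly higher, with a median of 0.17 log2 together with Psme1. Psmb9 had an intensity of 5733 in primary and 7263 in self-renewing macrophages, a difference of 0.30. Psmb8 had 7088 and 8286, a difference of 0.18, and Psmb10 had 19064 and 21906, a difference of 0.16. Only the difference of Psmb9 was larger than the scanner software's error. Psme1, a subunit of the proteasome activator PA28, had 11130 and 11524, a difference of 0.01 that became -0.01 when the arrays were scaled on probes detected on both. Psmb9 differed by 0.30 and Tap1, which shares its promoter stretch, by 0.42. The 14 genes of the constitutive proteasome core had a median of -0.08, or 0.10 with the authors' scaled values, with 3 higher, 11 lower and 0 at least 2-fold different. The 21 genes of proteasome caps and assembly had a median of -0.13, or 0.06 with the authors' scaled values, again with 0 at least 2-fold different. Of all genes, 4.77% were at least 2-fold higher and 8.38% lower.

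Chaperones of the endoplasmic reticulum, which fold class I along with many other proteins, showed differences near 0, with a median of -0.04 log2, or 0.14 with the authors' scaled values. Calr, which encodes calreticulin, had an intensity of 14457 in primary and 14788 in self-renewing macrophages, a difference of -0.01 that was above 0 with quantile normalization and with the authors' scaled values. Canx, which encodes the membrane-bound relative calnexin, had 30462 and 28161, a difference of -0.15, or 0.03 with the authors' scaled values, and its second probe gave 0.10. Pdia3, which encodes ERp57, the disulfide isomerase of the loading complex, had 4974 and 4844, a difference of -0.08, or 0.11 with the authors' scaled values. Hspa5, the general chaperone BiP, had 33222 and 36808, a difference of 0.11, with 3 probes between 0.06 and 0.11. All 4 differences were smaller than the scanner software's error. Another 19 folding factors of the endoplasmic reticulum had a median of -0.17, or 0.02 with the authors' scaled values, with 4 higher and 15 lower. At least 2-fold different were 0 of them, or 1, higher, with the authors' scaled values. In the processing reported, 4.77% of all genes were at least 2-fold higher and 8.38% lower.

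Nlrc5, the transactivator that works on class I promoters, had an intensity of 1943 in primary and 2450 in self-renewing macrophages, a difference of 0.29 log2 by its brighter probe and 0.02 by its dim one. Of 22 genes for the factors that bind class I promoters and for interferon signalling, 14 were higher and 8 lower, with a median of 0.11. At least 2-fold different were 0, against 4.77% of all genes higher and 8.38% lower. Rfx5, a subunit of the RFX complex through which NLRC5 acts, had 38.6 and 69.0, a difference of 0.80. Of the other subunits of that complex, Rfxank had 485 and 760, a difference of 0.61, and Rfxap 1316 and 880, a difference of -0.62. Irf1, which binds the interferon site, went from 4918 to 6383, a difference of 0.34. Rfx5, Rfxank, Rfxap and Irf1 were singled out with their values known. Of the 3 RFX subunits, 2 were higher and 1 lower, all by less than 2-fold.

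Other class I and class I-like genes were read from a list of 19, of which 11 were detected. Of these, 9 were higher and 2 lower in self-renewing than in primary macrophages, and their median was 0.72 log2. At least 2-fold higher were 3 of them and lower 1, against 4.77% and 8.38% of all genes. Mill2, a class I-like molecule encoded outside the H2 complex, had an intensity of 25.5 in primary and 202 in self-renewing macrophages. It was 7.71-fold higher by its single probe. The lowest detected intensity on the primary array was 11.8, so the size of this fold is uncertain. H2-Q5, a further Q region gene, had 247 and 1816 and was 7.16-fold higher, against at most 1.93-fold among the 11 heavy chain genes above. Fcgrt, the heavy chain of the neonatal Fc receptor, which pairs with β2-microglobulin, had 1971 and 6509 and was 3.21-fold higher. Procr, the receptor of protein C, went from 1609 to 323 and was 5.12-fold lower. The genes of this list spread from -2.36 to 2.95. Its H2 genes with a difference were H2-Q5 at 2.84, H2-M11 at 0.80, H2-Q8 at 0.72 and H2-T3 at 0.48. The 11 H2 heavy chains above lay within 0.20 to 0.95.

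Class I is read by receptors on T cells, natural killer cells and myeloid cells. Of 7 genes for such receptors 4 were detected, and 0 of them differed by at least 2-fold, or 1, higher, with the authors' scaled values. Pirb, an inhibitory receptor for class I on myeloid cells, had an intensity of 85708 in primary and 108224 in self-renewing macrophages, a difference of 0.30, and was named after its value was seen. Of 7 peptidases of the cytosol and endosomes 6 were measured, with a median of -0.13, or 0.06 with the authors' scaled values. At least 2-fold different were 0 of these. Of all genes, 4.77% were at least 2-fold higher and 8.38% lower.

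**Figure D4:**
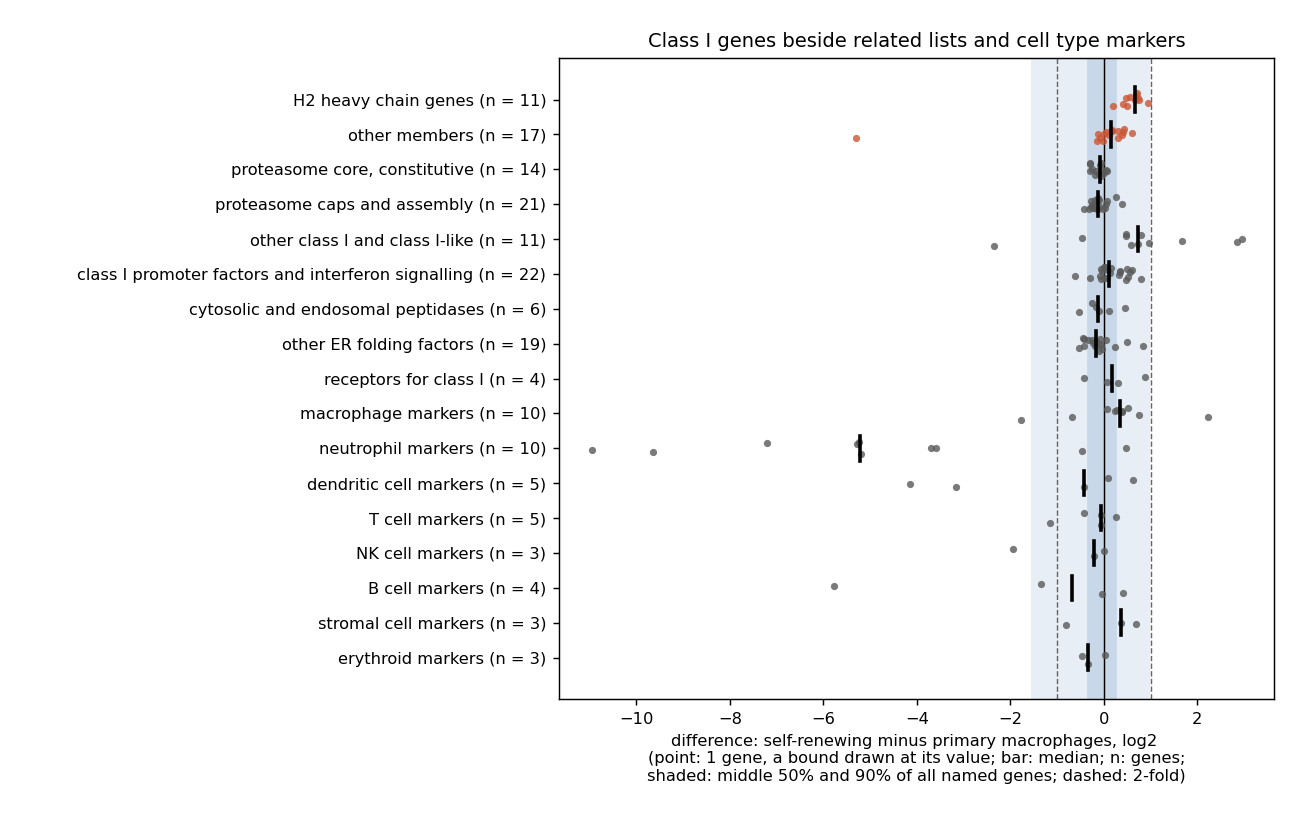
Difference between self-renewing and primary macrophages (log2, 1 array each) for the class I genes (orange) and for related lists and cell type markers (grey); each point is a gene, bars are medians, and the shaded bands hold the middle 50% and 90% of all named genes. The H2 heavy chain genes have a median of 0.66, the macrophage markers 0.34 and the neutrophil markers -5.22.

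Over all 28 genes with a difference, 23 were higher and 5 lower in self-renewing than in primary macrophages, and the median difference was 0.35 log2, or 1.27-fold. At least 1.5-fold higher were 7 and lower 1, against 10.9% and 15.1% of all genes. At least 2-fold higher were 0 and lower 1, against 4.77% and 8.38% of all genes. The genes other than heavy chains, 17 in number, had a median of 0.16, with 12 higher and 5 lower. Macrophage markers also lay higher, with a median of 0.34 and 8 of 10 higher: Csf1r, the M-CSF receptor, differed by 0.39 and Adgre1, which encodes F4/80, by 0.52, while Mertk, a receptor for dying cells, was 4.68-fold higher and Fcgr1, an Fc receptor, 3.39-fold lower. Their summed intensity was 408666 in primary and 552397 in self-renewing macrophages. The part of a larger share of macrophages in the class I differences was not tested.

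**Figure D5:**
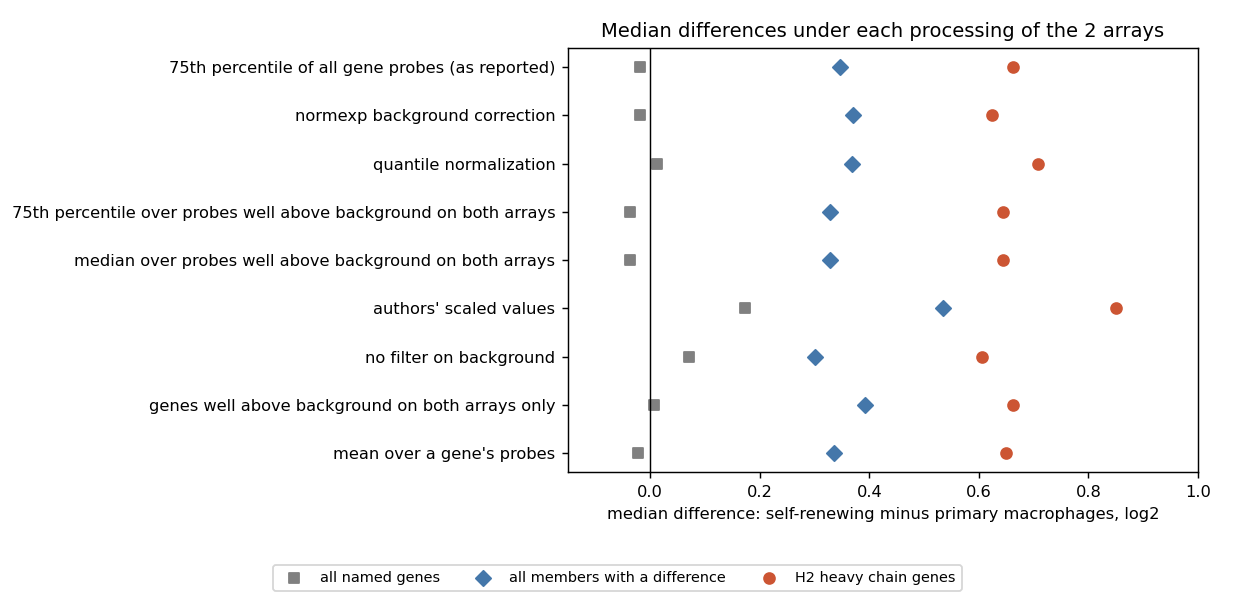
Median of the self-renewing minus primary difference (log2) over all named genes (grey squares), of the genes of the list (blue diamonds) and of the H2 heavy chain genes (orange circles) under the processing reported and 8 alternatives. The authors' scaled values move all 3 medians up together, and the H2 heavy chain genes stay the highest under each.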

How the data were processed

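RNA from 1 culture of each cell type, primary and self-renewing macrophages, was labelled with 1 dye and hybridised to Agilent SurePrint G3 mouse arrays. The authors deposited the intensity of each spot as Feature Extraction 11.5.1.1 gave it, background-subtracted within the array, with flags for spots well above background, called detected here. They also deposited a table of the same intensity values multiplied by 1 constant per array (1.07 and 1.19), whose choice is not stated in the sources used here. Detected gene probes numbered 34808 on the primary and 33095 on the self-renewing array.

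Control spots and 63 gene spots per array with an outlier flag were left out, spots of a probe were averaged, and log2 intensity was taken less the array's 75th percentile (434 and 446). Probes were named by transcript accession through RefSeq's GRCm38.p6 gene table, with 32988 of 56598 matched. Since the arrays were designed on an older assembly, probe coordinates are not given. Where a gene was detected on 1 array only, its difference is a bound: the undetected side was set to the lowest detected signal of that array, or to the probe's own signal if larger. Folds given as at least a size hold for this choice and for the background correction reported. No test was made, since 1 array per group gives no spread between replicates. The genes, lists, alternatives and motifs were chosen with earlier results of these data known. In the related lists, genes at least 2-fold different were named, at most 3 per direction.

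The alternatives were the authors' scaled values, normexp (offset 50), quantile normalization, scaling by the 75th percentile or the median of probes detected on both arrays, no detection filter, genes detected on both arrays, and averaging a gene's probes. The script was tested on simulated data. Promoters were aligned globally with free end gaps (match 1, mismatch -1, gap opening -4, extension -0.5). Python 3.11.15, numpy 2.4.6, pandas 2.3.3, matplotlib 3.10.9, Biopython 1.88, R 4.3.3 and limma 3.58.1 were used. Planned comparisons of protein sequences were not made.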

Additional observations from a re-analysis of the deposited data

How the results depend on the processing

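With 1 array per cell type nothing could be left out, and no paired analysis was possible because each group has 1 array. Naming probes by the gene names of the scanner files was not run, since the files used here pair no names with probes. Over the 8 alternatives that were run, 23 of the 28 genes kept their sign, all 11 H2 heavy chain genes among them, and Tap2, Psme1, Calr, Canx and Pdia3 did not. For the H2 heavy chain genes, only normexp, quantile normalization and probe averaging could change genes unequally. The authors' scaled values shift every difference by 0.19 log2 and the median of all genes to 0.17, and with them 49.2% rather than 36.2% of the genes at least 2-fold different were higher (1036 higher and 1069 lower, against 739 and 1300). The medians then became 0.53 for all 28 genes, 0.85 for the H2 heavy chain genes, 0.80 for the Q region, 0.90 for the T and M regions, 0.60 for transport and loading, 0.36 for the immunoproteasome, 0.14 for the chaperones and 0.35 for the genes other than heavy chains, and 1 gene, H2-M3, was at least 2-fold higher. At least 1.5-fold higher were 7 genes in the processing reported and 13 with the authors' scaled values, against 10.9% and 17.5% of all genes. Of the 11 H2 heavy chain genes these were 6 and 10, and 8 with quantile normalization. With normexp, 6 genes were at least 1.5-fold higher, against 7.30% of all genes. With genes detected on both arrays alone, 0 genes were at least 2-fold lower, since Cd1d1 has only a bound, and the median of the class I-like pair Mr1 and Cd1d1 went from -2.63 to 0.054, the value of Mr1. That median was -1.49 with normexp, under which 429 genes of the whole array were at least 2-fold higher and 750 lower. These counts were 1192 and 2336 with no detection filter, and 588 and 782 over genes detected on both arrays. Averaging a gene's probes gave 0.34 for H2-Q10, 0.50 for Mr1 and 0.30 for Tap2. Signal over background limits Cd1d1 to a bound and leaves H2-Q1 without a value.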
